A study of Mus musculus with 27 samples.

Results

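The 9 genes described here encode the subunits of AMPA and kainate receptors, the fast glutamate-gated cation channels of the brain. They were taken by gene symbol, by a rule that uses no measured value, from the 55416 rows of the gene count table, and the families were picked with earlier results of these data known. The 4 AMPA receptor genes are Gria1 to Gria4 and the 5 kainate receptor genes are Grik1 to Grik5, and all 9 were in the table. The tissue was the fetal brain, taken whole from 3 mouse strains at days 12 (d12), 15 (d15) and 17 (d17) of gestation, counted from the vaginal plug as day 1, and measured by RNA-seq. C57BL/6J is an inbred strain that the labels call long-lived, AKR/J is an inbred strain that they call short-lived, and B6.Cg-Cav1tm1Mls/J (Cav1-null) is a short-lived congenic strain that carries a disrupted gene for caveolin-1, a coat protein of membrane pits. There were 3 libraries in each of the 9 groups, 27 in all, from fetuses labelled female, with no treatment and no other allele given. The Cav1-null mice were a single congenic line and the AKR/J mice differ from C57BL/6J over the whole genome, so that a strain difference cannot be assigned to Cav1 or to life span. The study calls d12 to d15 the early phase and d15 to d17 the late phase, and the same words are used here. Whether the fetuses of a group came from separate litters is not given in the sources used here, and p-values measure the spread between these libraries.

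AMPA receptors are tetramers of the subunits GluA1 to GluA4 that carry most of the fast excitatory current between neurons, and kainate receptors are tetramers of GluK1 to GluK5 that act on both sides of the synapse. Gria2 encodes GluA2, which, once its transcript is edited, makes the channel nearly impermeable to calcium, and channels without it let calcium pass. Each AMPA subunit transcript carries 1 of a pair of alternative exons, called flip and flop, that set how fast the channel closes under glutamate. Among the kainate subunits, GluK1 to GluK3 (Grik1 to Grik3) form channels by themselves, while GluK4 and GluK5 (Grik4 and Grik5) need a partner among them and raise its affinity for glutamate.

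A result below turns on the alternative exons of Gria2, and their sequences are shown for that reason. Gria2 lies on the minus strand of chromosome 3, and its exons follow each other in the order in which they are printed. Upstream of the flop exon, at chr3:80598627-80598741, the annotation has a short exon of 41 bases at chr3:80599010-80599050. The flip exon follows at chr3:80597711-80597825. The sequences are of GRCm39, the build of the files, 5′ to 3′ on the strand of the gene. Capitals mark the T at the end of the short exon and the AA at the start of the flop and flip exons, which together read as the stop codon TAA. The short exon is followed by the flop exon in 4 annotated transcripts and by the flip exon in 3, and of these junctions the splice table lists the one into the flop exon.
Gria2 41-base exon: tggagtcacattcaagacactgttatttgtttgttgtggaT
Gria2 flop exon: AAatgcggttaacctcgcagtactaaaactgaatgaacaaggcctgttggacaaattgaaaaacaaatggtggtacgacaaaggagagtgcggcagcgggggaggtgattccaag
Gria2 flip exon: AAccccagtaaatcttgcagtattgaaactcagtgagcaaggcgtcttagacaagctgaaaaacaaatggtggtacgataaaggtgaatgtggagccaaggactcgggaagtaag
The flip and flop exons are both 115 bases long and identical at 79 of them (68.7%). The 41-base exon is in 8 annotated transcripts, all 8 of the class nonsense_mediated_decay (transcripts that the cell is held to degrade because their reading frame stops early), and in 6 of the 8 the stop codon reaches the end of this exon.

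The gene counts of a library summed to 26363697 to 39759702 reads (median 29700746), and a member had 66 to 42212 reads in a library. All 9 members passed the filter on low counts in every comparison. Levels are given in CPM, counts scaled by library size and TMM over the 27 libraries, which can be compared between libraries, and as CPM per kilobase (kb) of the canonical transcript where genes are compared with each other. Cav1 was at 0 to 0.509 CPM in the Cav1-null libraries, whereas AKR/J had 9.24 to 34.2 CPM and C57BL/6J had 10.4 to 39.9 CPM. All 8 neuron markers had reads in every group, and their summed level ran from 1730 to 7030 CPM. The AKR/J d12 libraries stood apart by 7 blood genes, which summed to 32800 to 196000 CPM there and to 419 to 16700 CPM elsewhere. Summed over 5 genes of trophoblast and decidua, they held 29.9 to 721 CPM, C57BL/6J d12 replicate 3 held 39.1 CPM, and no other library exceeded 4.0 CPM. Yolk sac endoderm genes other than Ttr also set them apart, with Afp at 1042, 135 and 15.8 CPM against at most 5.49 CPM elsewhere, and Apoa1 at 158, 24.7 and 4.67 CPM against at most 1.83 CPM. Ttr, of the same list, was at 175, 40.7 and 14.4 CPM there and reached 619 CPM elsewhere. The list summed to 1653, 223 and 37.4 CPM there and to 80.0 to 621 CPM elsewhere, so that its sum did not set the group apart. Reads also depended on GC content in a way that differed by strain. Relative to the other libraries, those of C57BL/6J gained 0.453 to 0.496 on the log2 scale on d15 for each 10 points of GC content of a transcript, and -0.137 to 0.514 on d12 and d17, whereas those of AKR/J and Cav1-null ran from -0.453 to 0.0262. Members span almost the whole range of this property, from Gria2 (37.6% GC) and Grik2 (38%) to Grik5 (63.9%), against a median of 49.9% over all genes. Strain differences that pass are therefore also given against C57BL/6J after the trend with GC content and length was removed from each library, a step chosen after the data were seen, which also takes away any difference that genes of like GC content share.

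Without the GC correction, Gria2 had the highest mean of the 9 genes per length in 8 of the 9 groups, and Grik4 the lowest in all 9. Gria2 reached 126.9 CPM per kb in AKR/J on d17, where Grik4 was at 2.51 CPM per kb. In C57BL/6J on d12, Grik5 had a higher mean per length than Gria2, 44.3 against 38.0 CPM per kb, and their libraries overlapped. Summed per length, the 4 AMPA genes went from 32.9 ± 4.93 CPM per kb on d12 through 105 ± 15 to 189 ± 13.5 on d17 in AKR/J (SD, n = 3). They were at 59.1 ± 20.4, 115 ± 4.37 and 156 ± 32.1 CPM per kb in C57BL/6J and at 84.2 ± 7.46, 171 ± 11.9 and 189 ± 10.6 in Cav1-null. The 5 kainate genes summed to 40.7 ± 5.81, 64.9 ± 7.01 and 80.3 ± 1.16 CPM per kb on the 3 days in AKR/J, to 73.5 ± 23, 114 ± 5.78 and 99.9 ± 12.7 in C57BL/6J and to 55.6 ± 5.67, 73.8 ± 0.744 and 92.6 ± 4.43 in Cav1-null. With the GC trend removed, the kainate sums were 63.3, 66.3 and 81.5 in AKR/J, 62.5, 71.4 and 80.7 in C57BL/6J and 65.2, 79.8 and 88.4 in Cav1-null, so that C57BL/6J no longer had the highest mean on d15 and its mean was higher on d17 than on d15. The AMPA sums were then 40.1, 105 and 168, 69.7, 107 and 143, and 92.8, 160.0 and 163 in the same order. Fewer cells of a type and less RNA per cell cannot be told apart in RNA of a whole brain, here and in all that follows.

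Gria1 (chr11:56902153-57221080, plus strand) encodes GluA1, the subunit that is added to synapses in plasticity. In AKR/J it was at 8.53, 10.7 and 5.94 CPM on d12, 85.4, 69.6 and 77.4 CPM on d15, and 133, 149 and 139 CPM on d17. In C57BL/6J it was at 58.2, 54.5 and 17.4 CPM, then 135, 148 and 155 CPM, then 197, 167 and 155 CPM. In Cav1-null it was at 55.6, 55.5 and 40.5 CPM, then 124, 128 and 128 CPM, then 192, 188 and 181 CPM. The highest group mean was 22.3 times the lowest (15.8 times with the GC trend removed), the widest range among the members. In the order of the 9 group means, AKR/J d12 was lowest and apart from all other groups, and 3 of the 8 pairs of neighbours overlapped: C57BL/6J d12 with Cav1-null d12, AKR/J d17 with C57BL/6J d15, and C57BL/6J d17 with Cav1-null d17.

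Gria2 (chr3:80588757-80710538, minus strand) encodes GluA2. In AKR/J it was at 239, 287 and 172 CPM on d12, 884, 636 and 667 CPM on d15, and 1294, 1484 and 1322 CPM on d17. In C57BL/6J it was at 515, 477 and 235 CPM, then 690, 742 and 692 CPM, then 722, 1301 and 877 CPM. In Cav1-null it was at 617, 696 and 520 CPM, then 1186, 1250.0 and 1399 CPM, then 1325, 1155 and 1261 CPM. In C57BL/6J, 2 of the 3 libraries of d17 lay above all those of d15 and 1 lay among them, and those of Cav1-null also overlapped between d15 and d17. With the GC trend removed, these days did not overlap in either strain. C57BL/6J was then higher on d17 (741 to 955 against 693 to 739 CPM). Cav1-null was lower on d17 (945 to 1018 against 1125 to 1148 CPM). The range of group means was 5.89-fold (3.95-fold with the GC trend removed), and 7 of the 8 neighbours in the order overlapped.

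Gria4 (chr9:4417604-4796326, minus strand) encodes GluA4, a subunit of fast channels in interneurons and hindbrain neurons. It was at 32.9, 35.1 and 48.4 CPM on d12, 93.7, 76.1 and 96.7 CPM on d15, and 132, 159 and 179 CPM on d17 in AKR/J. In C57BL/6J it was at 54.1, 52.3 and 40.9 CPM, then 70.4, 80.5 and 87.3 CPM, then 111, 185 and 144 CPM. In Cav1-null it was at 60.3, 70.0 and 79.8 CPM, then 115, 119.5 and 128 CPM, then 183, 162 and 162 CPM. Within each strain no library of an earlier day reached a library of a later one. Gria3 (X:40489476-40767490, plus strand), which encodes GluA3, was the least abundant AMPA gene per length in every group but AKR/J d12, from 14.3 to 65.0 CPM over all libraries. Its group means were 16.8, 44.5 and 57.3 CPM in AKR/J, 28.0, 57.6 and 61.8 CPM in C57BL/6J and 36.0, 54.0 and 62.2 CPM in Cav1-null. For Gria3 and for Gria4, 6 of the 8 neighbours in the order overlapped.

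Grik1 (chr16:87692788-88087153, minus strand) encodes GluK1. In AKR/J it was at 4.86, 3.26 and 4.62 CPM on d12, 20.3, 19.6 and 22.1 CPM on d15, and 35.2, 43.8 and 45.3 CPM on d17. In C57BL/6J it was at 13.5, 17.7 and 5.21 CPM, then 27.5, 31.0 and 34.4 CPM, then 41.5, 63.8 and 40.8 CPM. In Cav1-null it was at 15.2, 17.1 and 19.8 CPM, then 38.6, 41.2 and 41.3 CPM, then 67.4, 54.6 and 54.7 CPM. All libraries of a later day were above those of an earlier day within each strain, and the range of group means was 13.9-fold (11.6-fold with the GC trend removed). Grik2 (chr10:48970929-49664880, minus strand), which encodes GluK2, had the narrowest range without the GC correction, and Grik5 had it with the correction. The Grik2 group means ran from 112 CPM in C57BL/6J on d12 to 280.2 CPM in Cav1-null on d17, a 2.5-fold range (1.64-fold with the GC trend removed), and 7 of the 8 neighbours overlapped.

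Grik3 (chr4:125384202-125607966, plus strand) encodes GluK3, a subunit of channels with low affinity for glutamate. In C57BL/6J it was at 147, 150.3 and 42.6 CPM on d12, 239.9, 267 and 259.9 CPM on d15, and 215, 89.3 and 128 CPM on d17. In AKR/J it was at 25.9, 29.6 and 14.4 CPM, then 82.2, 61.8 and 85.5 CPM, then 82.1, 71.2 and 67.9 CPM. In Cav1-null it was at 76.4, 66.4 and 47.0 CPM, then 89.3, 89.3 and 81.3 CPM, then 79.8, 106 and 82.3 CPM. The 3 C57BL/6J libraries of d15 stood above all 24 others, and on d12 and d17 the C57BL/6J libraries were spread widely. The range of group means was 10.96-fold and fell to 3.59-fold with the GC trend removed.

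Grik5 (chr7:24709269-24772708, minus strand) encodes GluK5, and is the most GC-rich member. In C57BL/6J it was at 223, 262 and 148 CPM on d12, 278, 290.4 and 298 CPM on d15, and 278, 160.0 and 197 CPM on d17. In AKR/J it was at 89.7, 128 and 81.1 CPM, then 163, 131 and 158 CPM, then 167, 137 and 141 CPM. In Cav1-null it was at 138, 124 and 114 CPM, then 153, 140.3 and 121 CPM, then 136, 186 and 158 CPM. All 8 neighbours in the order of its groups overlapped, and with the GC trend removed its 9 group means lay between 150.4 and 181 CPM, a 1.2-fold range. Grik4 (chr9:42429431-42856154, minus strand), which encodes GluK4, was at 2.72 to 5.38 CPM in AKR/J on d12 and at 8.00 to 24.5 CPM in all other groups, with group means up to 20.5 CPM. Exons of 5 of the 9 members overlap exons of other annotated genes, among them the protein-coding Zfp574 on the other strand of Grik5, and since the handling of strands is not given in the sources used here, reads there could belong to either.

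In AKR/J, 7 of the 9 members rose in the early phase and 7 in the late phase. Gria1 rose 8.90-fold from d12 to d15, by 3.15 ± 0.24 on the log2 scale (SE, adjusted p = 6.07e-04, edgeR quasi-likelihood test), and Grik1 rose by 2.24 ± 0.23. Gria2 rose by 1.60, Grik3 by 1.66, Grik4 by 1.40, Gria3 by 1.36 and Gria4 by 1.15. Grik2 (0.13, adjusted p = 0.602) and Grik5 (0.55, adjusted p = 0.09) did not pass. Among all genes tested, 14.8% were called higher in this fit. From d15 to d17, where 11.6% of genes were called higher, Gria1, Gria2, Gria4 and Grik1 rose again, by 0.87, 0.92, 0.83 and 1.02 on the log2 scale, Grik2 by 0.65, Grik4 by 0.51 and Gria3 by 0.38, while Grik3 (-0.04) and Grik5 (-0.01) did not pass. The members had a median log2 change of 1.40 early and 0.65 late, and all genes tested had one of 0.02 and -0.01. Over the early phase the summed blood genes went from 32800 to 196000 CPM to 1860 to 2890 CPM and the neuron markers went from 1730 to 2230 CPM to 3790 to 5560 CPM. Over the late phase the summed blood genes went to 3150 to 16700 CPM, but 3 of the 7 were higher and 3 lower in every d17 library. Markers of dividing cells went from 685 to 715 CPM to 206 to 335 CPM, while the summed neuron markers, at 5460 to 5590 CPM on d17, overlapped. The part of these cells in the result was not tested. Without AKR/J d17 replicate 2, the late count went to 4. Of 6 fits that each left out a library, 1 kept the late call of Grik4 and 2 kept that of Gria3.

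In C57BL/6J, 3 members rose early and 2 late. Gria1 rose by 1.71 ± 0.39 on the log2 scale (SE, adjusted p = 0.0351, edgeR), Gria3 by 1.00 ± 0.20 (adjusted p = 0.0278) and Gria4 by 0.65 ± 0.13 (adjusted p = 0.0291), where 7.08% of genes were called higher. Grik1 (1.31), Grik3 (1.13), Gria2 (0.75) and Grik4 (0.66) had larger or like changes with adjusted p between 0.0552 and 0.0948. In the late phase, where 7.46% of genes were called higher, Gria4 rose by 0.94 ± 0.19 (adjusted p = 0.0234) and Grik1 by 0.71 ± 0.19 (adjusted p = 0.0459). Grik3 had a value of -0.76 ± 0.30 in that phase (adjusted p = 0.128). After the GC trend was removed, 4 members rose early and 5 late, and the late count was 1 with a replicate block. For the late phase these fits called 3974 and 2359 of all genes in either direction. Neuron markers summed to 3310 to 5520 CPM on d12, 6160 to 6960 CPM on d15 and 5130 to 7030 CPM on d17, and markers of dividing cells to 1070 to 1670, 580 to 717 and 166 to 235 CPM, and their part was not tested. The counts of members depended on single libraries. The early count was 7 with DESeq2 and 0 with a replicate block, where 4827 and 0 of all genes were called. It was 0 without C57BL/6J d12 replicate 1 or any 1 of the d15 libraries, 5 without d12 replicate 2 and 6 without d12 replicate 3, which held the lowest Gria1, Grik1 and Grik3 levels of its group and the trophoblast and decidua genes at 39.1 CPM, whose part was not tested. The late count was 0 without any 1 of the d15 libraries or d17 replicate 3, and 6 without d17 replicate 1, with 4 members higher and 2 lower.

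In Cav1-null, 6 members rose in each phase. Early, Gria1 rose by 1.33 ± 0.12 (SE, adjusted p = 2.8e-04, edgeR), Grik1 by 1.22, Gria2 by 1.07, Gria4 by 0.79, Gria3 by 0.58 and Grik2 by 0.48, where 11.6% of genes were called higher. Late, where 14.5% were called higher, Grik4 rose most of the members, by 0.70 ± 0.11 on the log2 scale (adjusted p = 5.2e-04). Gria1 rose by 0.56, Grik1 by 0.55, Gria4 by 0.48, Grik2 by 0.42 and Gria3 by 0.21 (adjusted p = 0.0493), and Gria2 stayed at -0.03 (adjusted p = 0.825). The Gria3 rise kept its call in 1 of 6 fits that left out a library in the early phase and in 2 of 6 in the late phase, and the early Grik2 rise in 2 of 6. With all 27 libraries in 1 model, none of the 6 late rises passed, where 829 of all genes were called. Markers of dividing cells summed to 699 to 1400 CPM on d12, 408 to 436 CPM on d15 and 170 to 179 CPM on d17 in this strain, astrocyte markers to 225 to 298, 145 to 165 and 235 to 286 CPM, and neuron markers to 4210 to 5200, 5140 to 5290 and 5690 to 5890 CPM. Cav1-null d12 replicate 3 stood apart by summed muscle markers (29.9 CPM against 5.96 and 7.77 CPM) and by the summed yolk sac endoderm list (621 CPM, of which Ttr made up 619 CPM, against 217 and 171 CPM). It also stood apart by lower summed markers of dividing cells (699 CPM against 1328 and 1404 CPM). Without this library 8 members rose in the early phase, where 35.9% of all genes were called in either direction. The part of these cells was not tested.

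**Figure D1:**
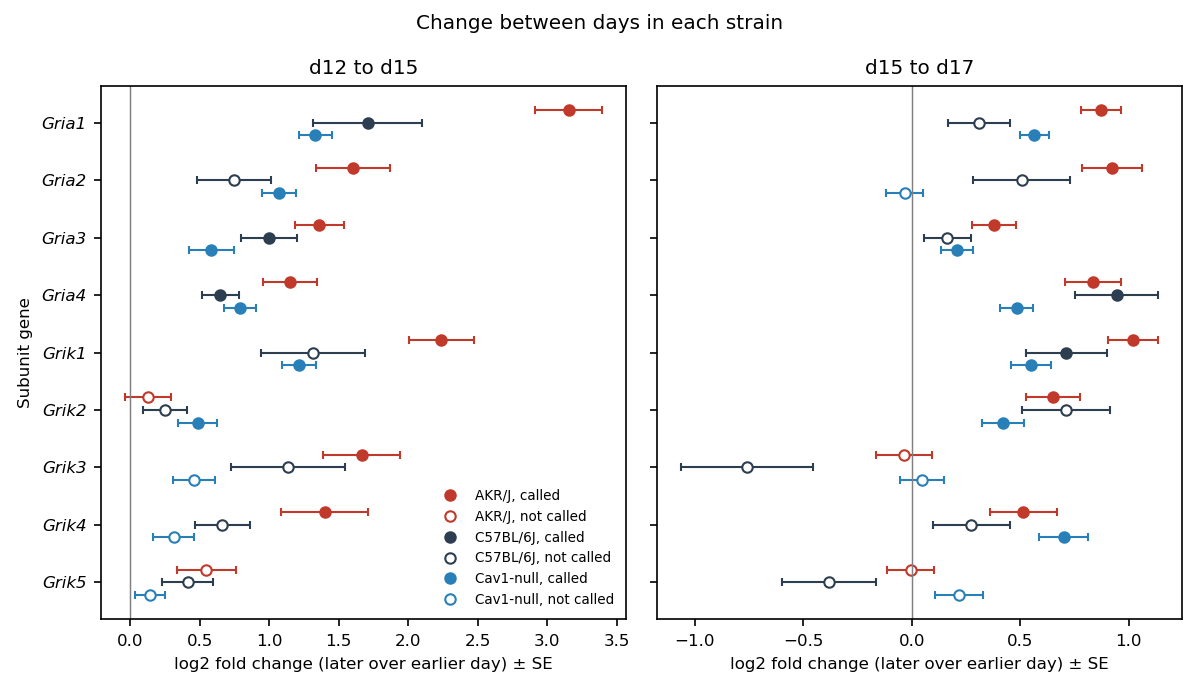
Log2 fold change of each subunit gene from d12 to d15 and from d15 to d17 in each strain, with bars of 1 SE and filled points where the adjusted p was under 0.05. All 31 filled points lie above 0, led by Gria1 in the early phase of AKR/J (3.15).

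Over the 6 comparisons of days, 31 of 54 member tests passed as higher and none as lower, in fits that called 7.08% to 14.8% of all genes higher. Of the 54 estimates, 49 were above 0. At an unadjusted p under 0.05, 1 member test was lower, and DESeq2 called 0 lower. Gria4 rose in all 6, Gria1, Gria3 and Grik1 in 5, Gria2, Grik2 and Grik4 in 3, Grik3 in 1 and Grik5 in 0. After removal of the GC trend, Gria1, Gria4 and Grik1 were higher in all 6, Grik5 in 0, and 32 tests passed as higher and 1 as lower, Gria2 in the late phase of Cav1-null (-0.22, adjusted p = 0.0114). Of the 54 estimates, 48 were then above 0, and Grik5, called in neither fit, changed sign in 5 of 6, with -0.17 and -0.08 in the early phases of AKR/J and C57BL/6J.

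Compared with C57BL/6J, AKR/J had lower levels of 5 members on d12. Gria1 was at -2.22 ± 0.45 on the log2 scale (SE, adjusted p = 0.0129, edgeR), Grik3 was at -2.13, Grik1 at -1.37, Grik4 at -1.27 and Grik5 at -0.93, where 14.1% of all genes were called lower. After removal of the GC trend, Gria1 alone among members passed, at -1.71 (adjusted p = 0.0271), against 15.9% of genes called in either direction, and Grik5 turned to 0.17. Without AKR/J d12 replicate 1 or 3, or C57BL/6J d12 replicate 2, no member passed, and without C57BL/6J d12 replicate 1 only 1 did. In this order, these fits called 1369 of 20135, 1529 of 20435, 25 of 20490 and 1630 of 20386 genes, against 5529 of 19320 in the main fit. Blood genes were at 32800 to 196000 CPM in these AKR/J libraries and at 1670 to 4340 CPM in C57BL/6J, neuron markers at 1730 to 2230 CPM against 3310 to 5520 CPM, and their part in the result was not tested.

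On d15, AKR/J was lower than C57BL/6J in 6 members and higher in 1, where 22.3% of genes were called lower and 18.8% higher. Grik3 was at -1.68 ± 0.11 (SE, adjusted p = 1.49e-04, edgeR), Grik5 at -0.87 ± 0.08, Gria1 at -0.85 ± 0.09, Grik4 at -0.61, Grik1 at -0.51 and Gria3 at -0.30. Grik2 was at 0.32 ± 0.09, a call kept in 1 of 6 fits that left out a library. With the GC trend removed, Grik3 (-0.87), Gria1 (-0.47), Grik1 (-0.46) and Gria3 (-0.35) passed as lower, against 21.5% of genes called in either direction. Grik5 then went to 0.08 (adjusted p = 0.639, edgeR) and Grik4 to -0.01. With all 27 libraries in 1 model 4 members passed, all lower, among 5233 of 23307 genes called. On d15 blood genes were at 1860 to 2890 CPM in AKR/J against 635 to 742 CPM in C57BL/6J and neuron markers at 3790 to 5560 against 6160 to 6960 CPM. The summed muscle markers reached 93.5 CPM in AKR/J replicate 2 and 65.0 CPM in C57BL/6J replicate 1, against medians of 6.39 and 8.17 CPM. Without the first of these libraries 8 members passed, among 7730 of 20413 genes, and without the second 6, among 6374 of 20250. The main fit called 8089 of 19692 genes. The part of these cells in the result was not tested. On d17 no member passed, among 0.742% of genes called in either direction. At an unadjusted p under 0.05, 3 members were lower on d17, where 21.2% of all genes passed in either direction, and DESeq2 called 1 member and 6.57% of all genes. Without C57BL/6J d17 replicate 2, which had the lowest Grik3 and Grik5 levels of its group, 4 members passed, 1 higher and 3 lower, among 26.4% of all genes.

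Compared with C57BL/6J, Cav1-null fetuses had higher Gria2, Gria4, Grik1 and Grik2 and lower Grik3, Grik5, Grik4 and Gria1 on d15, 8 of the 9 members. On this day 26.8% of genes were called higher and 31.8% lower, so that most genes tested were called. Gria2 was at 0.89 ± 0.07, Gria4 at 0.65 ± 0.08, Grik2 at 0.65 ± 0.09 and Grik1 at 0.43 ± 0.08 on the log2 scale (SE). Grik3 was at -1.52 ± 0.06 (adjusted p = 3.36e-08, edgeR), Grik5 at -1.02 ± 0.08, Grik4 at -0.50 ± 0.13 and Gria1 at -0.16 ± 0.06, the last a call kept in 1 of 6 fits that left out a library. By sequence, the 4 higher members have a GC content of 37.6% to 48.1% and the 4 lower ones of 49.3% to 63.9%. Correction for the GC trend left 46.8% of genes called in either direction, and Gria4 (0.74), Gria2 (0.67), Grik1 (0.59) and Grik2 (0.43) stayed higher and Grik3 (-0.50) lower. Gria1 (0.38, adjusted p = 4.54e-04) and Grik5 (0.16, adjusted p = 0.034) turned to higher, and Grik4 to 0.31 (adjusted p = 0.0574). The direction of Gria1 also turned, to 0.02, when libraries were scaled by their size alone. Between C57BL/6J and Cav1-null on this day, summed neuron markers were at 6160 to 6960 against 5140 to 5290 CPM, progenitor markers at 1570 to 1680 against 1300 to 1400 CPM, markers of dividing cells at 580 to 717 against 408 to 436 CPM, and astrocyte markers at 343 to 382 against 145 to 165 CPM. Blood genes were at 635 to 742 against 2040 to 2570 CPM. Oligodendrocyte precursor markers summed to 108 to 143 against 41.2 to 55.1 CPM, and all 5 were lower in every Cav1-null library. None of these ranges of sums overlapped, but single neuron, progenitor, astrocyte and blood markers went both ways. Of the 6 markers of dividing cells, 3 were lower in every Cav1-null library and 3 overlapped. Of the 6 astrocyte markers, 3 were lower and 1 higher. Of the 8 neuron markers, 5 were lower in every Cav1-null library and 2 higher, Stmn2 (1047 to 1062 against 653 to 809 CPM) and Snap25 (156 to 177 against 112 to 143 CPM). Of the 8 progenitor markers, 7 were lower in every Cav1-null library and Fabp7 was higher (851 to 938 against 282 to 356 CPM). Of the 7 blood genes, 4 were higher and 2 lower. The part of these cells in the result was not tested.

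**Figure D2:**
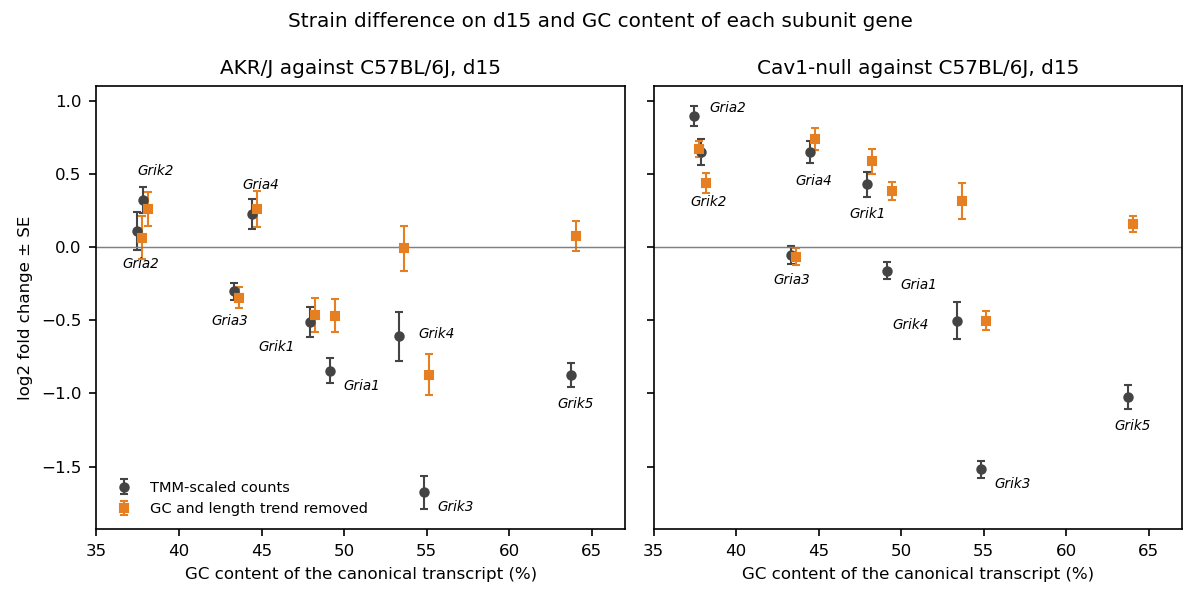
Log2 fold change of each subunit gene against C57BL/6J on d15 (bars are 1 SE) by the GC content of its canonical transcript, from TMM-scaled counts (circles) and after the GC and length trend was removed (squares). Grik5, at 63.9% GC, moves from -0.87 to 0.08 in AKR/J and from -1.02 to 0.16 in Cav1-null, while Grik3 stays below 0 in both.

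On d12 and d17 no member differed between Cav1-null and C57BL/6J by the edgeR test, where 0% and 0.0491% of genes were called in either direction. On d12, 2 members had an unadjusted p under 0.05, as had 22.1% of all genes, and DESeq2 called 2, and 10.4% of all genes. On d17 both of these counts of members were 0, against 7.55% and 0.236% of all genes. Without C57BL/6J d12 replicate 3, 2 members passed as lower on d12, where 7.37% of all genes were called, and without C57BL/6J d17 replicate 2, 4 passed on d17, 3 higher and 1 lower, where 13.6% were. Grik3 and Grik5 were at -0.80 and -0.71 on d12 and at -0.69 and -0.40 on d17.

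Setting AKR/J against Cav1-null involves no C57BL/6J library. AKR/J was lower in 7 members on d12, 5 on d15 and 2 on d17, where 9.93%, 9.7% and 6.67% of all genes were called lower. Gria1 was at -2.54 ± 0.26, -0.73 ± 0.08 and -0.42 ± 0.07 on the 3 days on the log2 scale (SE), and Grik1 at -1.99 ± 0.26, -0.98 ± 0.08 and -0.52 ± 0.11, each with an adjusted p of at most 0.0112 (edgeR). Gria2 was at -1.35 on d12 and -0.83 on d15, Gria3 at -1.05 and -0.30, and Gria4 at -0.81 and -0.46, all called, and Grik3 (-1.39) and Grik4 (-1.22) were lower on d12 alone. Grik2 and Grik5 passed on no day. With the GC trend removed, Gria1 and Grik1 were lower on all 3 days, Gria2 passed as higher on d17 (0.25), and Grik4 no longer passed on d12 (-0.86, adjusted p = 0.0849). Blood genes were at 3650 to 4680 CPM in Cav1-null on d12, below every AKR/J library, overlapped on d15 (1860 to 2890 against 2040 to 2570 CPM), and on d17 were at 3150 to 16700 CPM in AKR/J against 419 to 1950 CPM. Neuron markers on d12 summed to 1730 to 2230 CPM in AKR/J against 4210 to 5200 CPM, with 6 of the 8 lower in every AKR/J library and 2 overlapping. Progenitor markers on d12 summed to 2080 to 4210 against 1470 to 1880 CPM, with 4 of the 8 higher in every AKR/J library and 4 overlapping. Markers of dividing cells were at 685 to 715 against 408 to 436 CPM on d15 and 206 to 335 against 170 to 179 CPM on d17. The part of these cells was not tested. The d12 count went to 4 without AKR/J d12 replicate 1, 3 without Cav1-null d12 replicate 1 and 2 without Cav1-null d12 replicate 2. In this order these fits called 2050, 1272 and 1431 of all genes, against 3906 in the main fit. The d15 count went to 3 without Cav1-null d15 replicate 3, where 1930 genes were called against 3894 in the main fit. The d15 call of Gria3 was kept in 1 of 6 such fits. With all 27 libraries in 1 model, 2 members passed on d15 and 0 on d17, among 1586 and 639 of 23307 genes.

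An interaction term over 12 libraries tested whether strains differed in their change from day to day. Early, 3 members rose more in AKR/J than in Cav1-null, where 7.86% of genes did. The difference was 1.80 ± 0.27 on the log2 scale for Gria1 (SE, adjusted p = 0.00357, edgeR), 1.18 ± 0.34 for Grik3 (adjusted p = 0.0366) and 1.00 ± 0.23 for Grik1 (adjusted p = 0.0148). Corrected for GC content, Gria1 passed, at 1.36 (adjusted p = 0.00744), while Grik1 was at 0.73 (adjusted p = 0.0569) and Grik3 at 0.60 (adjusted p = 0.263). Late, Gria2 rose more in AKR/J than in Cav1-null, by 0.94 ± 0.17 (adjusted p = 0.0226), where 1.48% of genes did, and 0.84 with the GC trend removed (adjusted p = 0.0277). The Grik3 difference kept its call in 5 of 12 fits that left out a library, and the early count was 7 without AKR/J d12 replicate 2. With all 27 libraries in 1 model or with a replicate block, the late Gria2 difference did not pass, in fits that called 0 and 34 of all genes. The late count was 2 without AKR/J d17 replicate 1 and 0 without AKR/J d17 replicate 2 or 3, Cav1-null d15 replicate 2 or 3, or Cav1-null d17 replicate 2 or 3.

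No member differed in its change between AKR/J and C57BL/6J, where 0.0711% (early) and 0.00468% (late) of genes were called, or between Cav1-null and C57BL/6J, where 0.00472% and 0.252% were. At an unadjusted p under 0.05 these 4 fits held 1, 2, 0 and 4 members and 16.3%, 7.57%, 15% and 21.9% of all genes, and DESeq2 called 0 members in each and 4.78%, 0.211%, 2.35% and 6.7% of all genes. Without C57BL/6J d12 replicate 3, 2 members passed for AKR/J in the early phase, among 1.74% of all genes. Without C57BL/6J d17 replicate 1, 2 members passed for AKR/J and 6 for Cav1-null in the late phase, among 3.7% and 26.1% of all genes.

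The composition of each family was read from the share of each subunit in the summed level per length of its family, which does not depend on the scaling of a library. Days were compared within strain and strains within day by exact two-sided permutation tests over 18 libraries, with Benjamini-Hochberg adjustment over 18 tests for each kind of comparison and a smallest p of 0.00025. Gria2 held 50.8% to 70.4% of the AMPA family in every library. The share of Gria1 was 4.27% ± 0.641 in AKR/J on d12 and 12.6% ± 0.578 on d15, 11.8% ± 3.02 and 21.5% ± 0.979 in C57BL/6J, and 10.2% ± 1.27 and 12.6% ± 0.71 in Cav1-null (SD, n = 3). It rose by 6.84 points on average from d12 to d15 (adjusted p = 0.0015), in 3 of 3 strains, while the share of Gria4 fell by 4.06 points (adjusted p = 0.00844). The Gria1 rise was as large with the GC trend removed (6.65 points), and the Gria4 fall did not pass then (-2.19, adjusted p = 0.188). From d15 to d17 the share of Gria4 rose by 2.4 points (adjusted p = 0.0209), in 2 of 3 strains, and that of Gria3 fell by 1.24 points (adjusted p = 0.0277).

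In the kainate family Grik5 held the largest share in most libraries, from 31.4% to 65.5%, and Grik4 the smallest, from 1.08% to 3.62%. The share of Grik5 fell by 6.1 points in the early phase (adjusted p = 0.00844) and by 7.3 points in the late phase (adjusted p = 0.0085), in 3 of 3 strains each time. The share of Grik1 rose by 5.19 points early (adjusted p = 0.0015) and 4.78 points late (adjusted p = 0.00225), in 3 of 3 strains, from 3.00% ± 0.925 on d12 to 14.4% ± 1.69 on d17 in AKR/J, from 4.37% ± 1.21 to 13.9% ± 4.56 in C57BL/6J and from 8.90% ± 2.16 to 17.9% ± 2.55 in Cav1-null. Grik3 went up by 5.2 points early (adjusted p = 0.006) and down by 4.65 points late (adjusted p = 0.0015), in 3 of 3 strains each time. Grik2 gained 6.52 points (adjusted p = 0.0144) and Grik4 0.644 points (adjusted p = 0.0036) in the late phase. With the GC trend removed, the early values were 6.31 points for Grik1, 4.64 for Grik3 and -8.64 for Grik5, all passing.

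Between strains, the share of Gria1 was lower than in C57BL/6J in AKR/J (-7.74 points, adjusted p = 0.00225) and in Cav1-null (-4.39 points, adjusted p = 0.0217), and the share of Grik3 was at -8.77 and -6.58 points. With the GC trend removed, Gria1 in AKR/J (-4.05) and Grik3 in both strains (-6.97 and -4.57) still passed, and Gria1 in Cav1-null did not (-0.04, adjusted p = 0.952). Grik2 held 15.3 points more of the kainate family in AKR/J and 12.6 points more in Cav1-null, values that went to 4.47 and 2.92 points with the GC trend removed. The share of Grik5 was at -6.48 points in AKR/J and -11.7 points in Cav1-null, and with the GC trend removed it turned to 5.06 points in AKR/J (adjusted p = 0.0117) and went to -1.64 points in Cav1-null (adjusted p = 0.289). Of the 9 shares, 5 passed in the early phase, 7 in the late phase, 5 between AKR/J and C57BL/6J and 7 between Cav1-null and C57BL/6J, and 6, 8, 5 and 5 did with the GC trend removed.

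**Figure D3:**
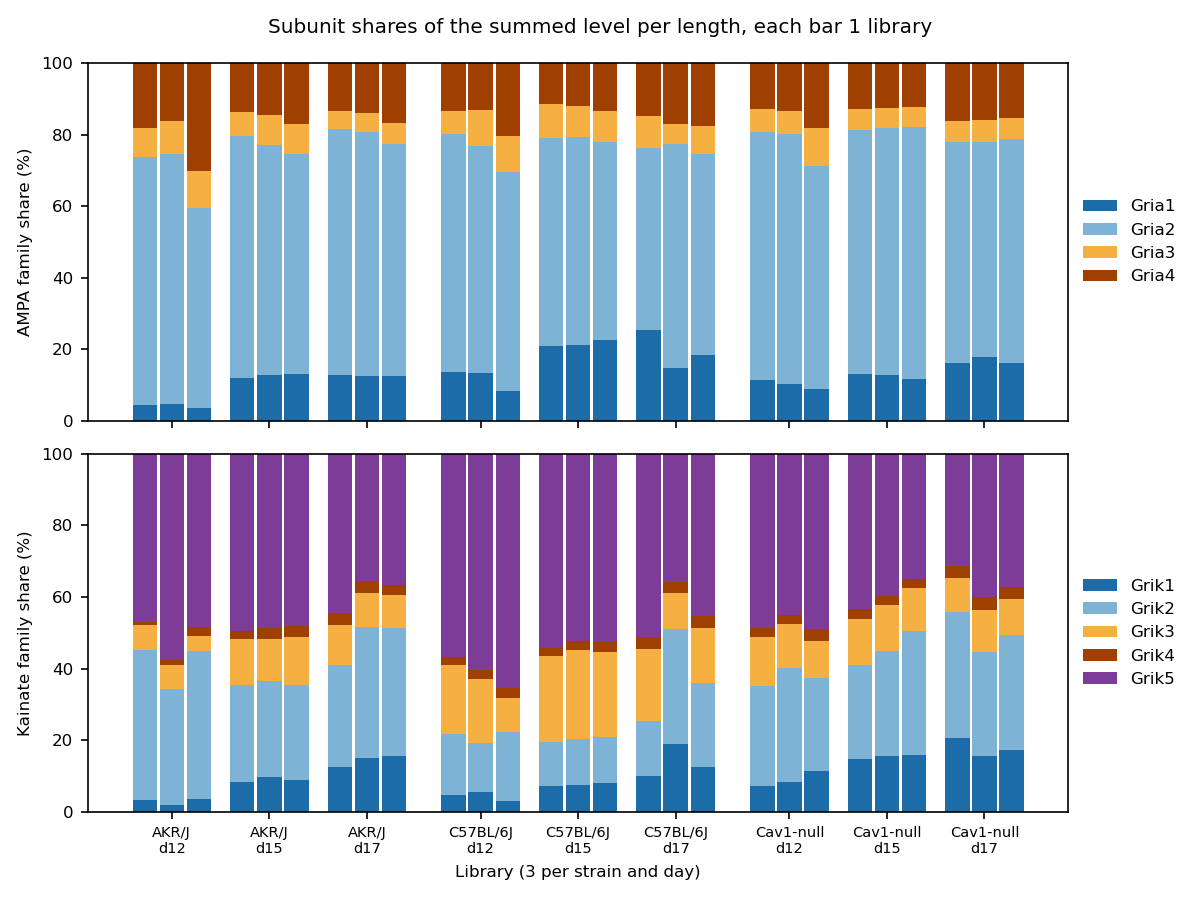
Share of each subunit in the summed level per length of the AMPA family (top) and of the kainate family (bottom), in percent, with 1 stacked bar for each library and 3 for each strain and day. Gria2 fills 50.8% to 70.4% of every AMPA bar, and the part of Grik1 is wider in all d17 bars than in the d12 bars of the same strain.

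The splice table gave a second readout, the reads that span a junction. It listed 39 junctions of the members, 37 of them among their 330 annotated introns and 2 not annotated, 1 in Gria2 and 1 in Grik2. Most were in Gria2 (11), Grik2 (8) and Grik5 (8), and none in Gria4, Grik3 or Grik4. Listed values of 0 can stand for junctions that the study's filters removed. The junction into the 41-base exon of Gria2 had reads in all 27 libraries (9 to 94), as had the junction out of it into the next exon (5 to 61). The junction that skips it into the flop exon was listed with reads in 19 libraries. A further junction, which skips it into the flip exon (chr3:80597826-80599591), was at 0 in 25 libraries. Reads into and out of the exon were set against those of a reference junction of the gene, the listed one with the highest lowest count (75 to 1089 reads, chr3:80648506-80708951). It lies toward the 5′ end, so that the ratio also moves with coverage along the transcript, and a nearer junction with fewer reads (7 to 509, chr3:80614566-80615005) served as an alternative. These readouts were chosen after their values had been seen.

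Reads into the 41-base exon fell from d12 to d17 relative to the reference junction of Gria2. Per 100 reads of that junction they were 20.8, 32.1 and 12.0 in AKR/J on d12, 12.1, 8.29 and 12.7 on d15 and 7.39, 4.22 and 8.52 on d17. In C57BL/6J they were 9.64, 13.2 and 17.3, then 10.7, 8.73 and 8.75, then 5.18, 2.81 and 3.17. In Cav1-null they were 11.7, 10.4 and 11.5, then 6.13, 8.56 and 7.46, then 3.17, 4.78 and 4.15. All d17 libraries were below all d12 libraries of their strain. The difference between d12 and d17 was -10.6 reads per 100, with the same direction in 3 of 3 strains (exact permutation test over 18 libraries, p = 0.00025, the smallest it can give, and 0.00187 adjusted over 15 tests). The parts of it were -6.13 early (adjusted p = 0.0045) and -4.45 late (adjusted p = 0.0025), and reads out of the exon gave -2.99, -2.21 and -5.2 over the same spans (adjusted p = 0.0175, 0.00375 and 0.00187). The junction that skips the exon into the flop exon was also listed with reads in 14 libraries of d12 and d17. There the percent of reads with the exon, counted against that junction alone, differed by -11.6 points between these days (adjusted p = 0.0536, permutation test). Reads that skip into the flip exon were left out of this percent, which can also move with flip and flop use. By this percent the early difference was -1.66 points over 13 libraries (adjusted p = 0.651) and the late one -9.94 points over 11 libraries (adjusted p = 0.0675), so that none of the 3 passed. AKR/J was at 4.29 and Cav1-null at -1.29 reads per 100 against C57BL/6J (adjusted p = 0.0675 and 0.214). Against the nearer junction, reads into the exon also fell in both phases (-49.2 and -12.6 reads per 100, adjusted over 5 tests p = 6.25e-04 and 4.17e-04 by the exact permutation test), in 3 of 3 strains. By that measure AKR/J stood above C57BL/6J (45.4, adjusted p = 4.17e-04), with 151 ± 25.5 reads per 100 on d12 against 34.8 ± 10.1 (SD, n = 3), and Cav1-null did not pass (-1.02, adjusted p = 0.698). A value above 100 means that more reads crossed into the exon than crossed the nearer junction, and the part of coverage in it was not tested.

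**Figure D4:**
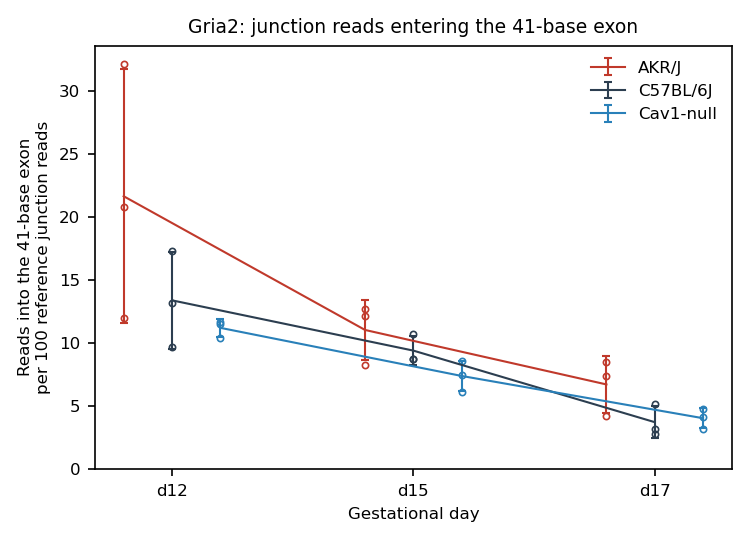
Junction reads that enter the 41-base exon of Gria2 per 100 reads of the 5′ reference junction of Gria2 by gestational day, with 1 open point for each library, group means joined by lines, bars of 1 SD and 1 colour for each strain. The means go from 21.6 to 6.71 in AKR/J, from 13.4 to 3.72 in C57BL/6J and from 11.2 to 4.03 in Cav1-null between d12 and d17.

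In Grik1, junctions around an exon of 87 bases near its 3′ end (chr16:87693697-87693783) were listed too, with few reads. Pooled over the libraries of a group, the percent of reads that enter the exon rather than skip it was 25.6% (exact 95% interval 13.0% to 42.1%) in AKR/J on d15 and 42.3% (28.7% to 56.8%) on d17. This percent was 33.3%, 36.0% and 45.4% on the 3 days in C57BL/6J and 50.0%, 47.1% and 56.9% in Cav1-null, and the intervals of successive days overlap in every strain. These intervals cover counting error only, and no test was made.

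Among 37 genes that act with these receptors, 28 rose in at least 1 of the 6 comparisons of days and none passed as lower (2 were lower at an unadjusted p under 0.05, over the 6). In AKR/J, 22 rose early and 10 late, in C57BL/6J 15 and 5, and in Cav1-null 16 and 18, in fits where 14.8% and 11.6%, 7.08% and 7.46%, and 11.6% and 14.5% of all genes were called higher. Neto1, which encodes an auxiliary subunit of kainate receptors, went from 6.4 to 9.74 CPM on d12 to 15.1 to 21.1 CPM on d15 and 57.8 to 78.7 CPM on d17 in AKR/J. It was the gene of the list with the largest rise in 4 comparisons, by 1.89 ± 0.16 in the late phase of AKR/J, 1.30 ± 0.13 in that of C57BL/6J, and 1.82 ± 0.12 and 1.14 ± 0.08 in the early and late phases of Cav1-null (log2, SE). In the early phase, Cacng3, an auxiliary subunit that carries AMPA receptors to the synapse, rose by 3.92 ± 0.51 in AKR/J, from 0.296 to 0.618 CPM to 4.16 to 9.75 CPM, and Cnih3, a cornichon that binds AMPA receptors, rose by 1.96 ± 0.37 in C57BL/6J.

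By function, the genes of this list that passed as higher in the early phase were 4 (AKR/J), 3 (C57BL/6J) and 3 (Cav1-null) of the 6 TARPs (the auxiliary family of Cacng3), 3, 1 and 2 of the 3 RNA editing genes in the same order, and 1, 2 and 2 of the 2 Neto genes. Adarb1, whose enzyme edits GluA2 transcripts, rose in all 6 comparisons, as did Neto1, Frrs1l, an assembly factor of AMPA receptors, and Grip2, a scaffold protein that binds GluA2. The 3 vesicular glutamate transporter genes rose in 0 of 5 comparisons, and 1 of the 3 rose in the late phase of Cav1-null. The median log2 change of the list was 1.05 in the early phase of AKR/J, 0.73 in that of C57BL/6J and 0.34 in that of Cav1-null.

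Between strains, 20 of the 37 genes were lower in AKR/J than in C57BL/6J on d12 and 27 on d15, and 19 were lower and 5 higher in Cav1-null on d15, with the background shares and the GC slopes given above. Removal of the GC trend left 10 lower and 1 higher in AKR/J on d12, 12 lower and 1 higher on d15, and 9 lower and 13 higher in Cav1-null on d15, in fits that called 15.9%, 21.5% and 46.8% of all genes. Cacng3 was at -3.42 ± 0.53 in AKR/J on d12 (log2, SE), and at -3.05 after that step. Nptxr, a receptor of pentraxins that cluster AMPA receptors, was at 115 to 139 CPM in C57BL/6J on d15, and 5.08-fold lower in AKR/J (18.9 to 31.7 CPM) and 5.02-fold lower in Cav1-null (17.8 to 28.1 CPM). On the log2 scale these differences of Nptxr were -2.34 and -2.33, and -1.57 (adjusted p = 0.00213, edgeR) and -1.31 (adjusted p = 2.72e-06) with the GC trend removed. Neto2, another auxiliary subunit of kainate receptors, was the gene of the list that was most above C57BL/6J in Cav1-null on d15, at 0.81 ± 0.08, without the GC correction. With the trend removed Neto2 was at 0.49 and 6 genes of the list were above it, led by Grip2 (1.14). No gene of the list passed on d17 in AKR/J or on d12 and d17 in Cav1-null against C57BL/6J by edgeR, and at an unadjusted p under 0.05 there were 14, 6 and 7 of the 37, beside 21.2%, 22.1% and 7.55% of all genes. Against Cav1-null, AKR/J was lower in 14, 9 and 12 genes on the 3 days, led by Cacng3 (-3.06), Cnih3 (-1.18) and Frrs1l (-0.71), and 11 genes, led by Cacng3 (2.42 ± 0.50), rose more in AKR/J in the early phase and 1, Grip2 (0.63 ± 0.13), in the late phase.

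Across the 27 libraries the members fell into patterns that were described by Pearson's r of log2(CPM + 1), values that share strain, day and GC content of the gene and carry no test. Among the members r was highest for Gria1 with Grik1 (0.96) and with Gria3 (0.958), was 0.932 for Grik3 with Grik5, and was lowest for Grik2 with Grik5 (-0.162). The genes outside the families that followed a member most closely were Gpr26 (0.994) and Ppp2r2c (0.992) for Gria1, B230334C09Rik (0.977) and Lrrc7 (0.973) for Gria2, Car10 (0.976) and Ptpre (0.974) for Gria3, and Rab9b (0.985) and Smim17 (0.985) for Gria4. They were Tmem150c (0.989) and Dpp10 (0.985) for Grik1, Gm50490 (0.974) and Bicd1 (0.971) for Grik2, Plxnc1 (0.984) and Kazn (0.982) for Grik3, Brinp1 (0.985) and Myrip (0.982) for Grik4, and Ttbk1 (0.987) and Tnk2 (0.983) for Grik5. Gm50490 is annotated as a processed pseudogene that lies beside the 3′ end of Grik2 on the same strand.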

How the data were processed

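The series holds 27 libraries of fetal brain (poly-A selected, paired reads), 3 for each strain and day, and they were grouped by these labels. Per the submitters' processing notes, the authors used FastQC, cutadapt, fastp, STAR, edgeR and bedtools on GRCm39. The deposited gene table holds raw read counts per Ensembl gene, and the deposited splice table holds read counts per junction, from which the authors had removed junctions with multi-mapped reads, short overhangs or under 10 reads in all samples. The counting tool and its use of strand are not given in the sources used here.

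Counts were tested in R 4.3.3 with edgeR 4.0.16 (filterByExpr, TMM, quasi-likelihood test, Benjamini-Hochberg over all genes tested, called at 0.05), in 6 comparisons of days and 9 of strains on 6 libraries each and 6 interactions on 12. SEs were derived from the fold change and the F statistic (size of the log2 value divided by root F). Lengths, GC content and exon sequences came from GENCODE vM39 on GRCm39. The GC and length trend was a spline with 5 degrees of freedom per library, put into the fits as offsets. Python 3.11.15 (pandas 2.3.3, scipy 1.17.1, numpy 2.4.6) served for the permutation tests of shares and matplotlib 3.10.9 for plots. The scripts were tested on simulated data.

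Alternatives were DESeq2 1.42.0, RLE size factors, library sizes alone, no filter, at least 10 reads in every library, a replicate block, all 27 libraries in 1 model and leaving out each library, and for shares no scaling to length and the sum of all 9 subunits. The GC trend, the union of all exons as length and the Gria2 exon were chosen after seeing the data. The members and the list of 37 genes were chosen with earlier results of these data known. Named beside the members are, of the list, the called genes with the largest rise and fall in each comparison, those called in all 6 comparisons of days (after their values were seen), and for each member the 2 genes with a mean of at least 5 CPM and the highest correlation with it. Intervals cover counting error only, since reads carry no molecular identifiers.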

Additional observations from a re-analysis of the deposited data

Results flagged for a closer look

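The early rise of 3 members differed between AKR/J and Cav1-null in the interaction test. Gria1 rose by 1.80 more on the log2 scale in AKR/J (adjusted p = 0.00357, edgeR), from 8.39 to 77.4 CPM there and from 50.5 to 127 CPM in Cav1-null. Grik3 rose by 1.18 more (adjusted p = 0.0366), from 23.3 to 76.5 CPM against 63.3 to 86.6 CPM, and Grik1 by 1.00 more (adjusted p = 0.0148), from 4.25 to 20.7 CPM against 17.4 to 40.4 CPM. With the GC trend removed, Gria1 kept its call (adjusted p = 0.00744), and Grik3 (adjusted p = 0.263) and Grik1 (adjusted p = 0.0569) did not. Leaving out a library, Grik3 kept its call in 5 of 12 fits and Gria1 and Grik1 in 12 of 12. In these 3 genes the AKR/J libraries of d12, where blood genes were at 32800 to 196000 CPM, were lower than all those of Cav1-null. Neuron markers summed to 1730 to 2230 CPM in these AKR/J libraries and to 4210 to 5200 CPM in those of Cav1-null. The part of the blood and neuron genes in the result was not tested. The late rise of Gria2 was larger in AKR/J by 0.94 (adjusted p = 0.0226), from 729 to 1367 CPM against 1279 to 1247 CPM in Cav1-null, and 6 of the 12 fits that left out a library kept this call.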

How the results depend on the processing

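Of 189 fold changes of members, 187 kept their side of the threshold and, where called in either fit, their direction with RLE size factors, 184 with at least 10 reads in every library, 178 with library sizes alone, 177 with no filter, 176 with DESeq2, 173 with a replicate block, 167 with the GC trend removed and 155 with all 27 libraries in 1 model. Counts of members called went in C57BL/6J early (main 3) to 7 with DESeq2 and with the model of all 27 libraries, in C57BL/6J late (2) to 5 with the GC trend removed, and in Cav1-null late (6) to 0 with all 27 libraries. They went in AKR/J against C57BL/6J to 1 on d12 (5) and 4 on d15 (7) with the GC trend removed, to 4 on d15 with all 27 libraries, and on d17 (0) to 1 with DESeq2 and with no filter. They went in Cav1-null against C57BL/6J on d12 (0) to 2 with DESeq2 and 1 with all 27 libraries, in AKR/J against Cav1-null to 2 on d15 (5) and 0 on d17 (2) with all 27 libraries, and in the interactions of AKR/J with C57BL/6J early (0) to 1 with all 27 libraries and with Cav1-null early (3) to 5 with DESeq2 and 1 with the GC trend removed, and late (1) to 2 with no filter and 0 with all 27 libraries. Whether called or not, 31 changed sign with the GC trend removed, 26 of them called in neither fit, and 5 with library sizes alone. The called fold changes that reversed were Grik5 in AKR/J against C57BL/6J on d12 (0.17) and d15 (0.076) and Gria1 (0.38), Grik4 (0.31) and Grik5 (0.16) in Cav1-null against C57BL/6J on d15, all with the GC trend removed, and Gria1 there with library sizes alone (0.018). Of the 37 related genes, 11 passed on d12 (20) and 13 on d15 (27) in AKR/J against C57BL/6J with the GC trend removed. Of the shares, 8 passed in the early phase (5) with the union of exons as length and 8 between AKR/J and C57BL/6J (5) as shares of all 9 subunits. As such shares Gria2 reversed early (6.36), Grik1 in AKR/J (-0.685), and Gria4 (1.74) and Grik4 (-0.276) in Cav1-null, and with the GC trend removed Grik1 (-2.38) and Grik5 (5.06) reversed in AKR/J. Causes were not tested.

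With library sizes alone, the median of all genes moved by 0.44 in the early phase of AKR/J, 0.14 in the late phase of C57BL/6J, -0.40 in AKR/J against either strain on d12, 0.16 and 0.18 in AKR/J and Cav1-null against C57BL/6J on d15, 0.55 and 0.44 in the early interactions of AKR/J with C57BL/6J and Cav1-null, and -0.21 and -0.10 in the late interactions of AKR/J and Cav1-null with C57BL/6J. The percent of called genes that were higher then went from 51.4 to 74.7, 57.2 to 68.4, 50.6 to 30.2 (C57BL/6J) and 49.3 to 28.6 (Cav1-null), 45.7 to 62.8 and 45.7 to 59.2, and 6.67 to 83.2 and 53.7 to 77.2, in this order.

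Libraries with the same number were no pairs: in 0 of 15 comparisons did every pair's deviations correlate above 0.1 (-0.432 to 0.362). With the replicate block the count went to 0 in C57BL/6J early (0 genes of all, 5654 at an unadjusted p under 0.05), 1 in C57BL/6J late, 1 in AKR/J against C57BL/6J on d17 and 0 in the late interaction of AKR/J with Cav1-null. Leaving out each library gave counts of 6 to 8 and 4 to 7 (AKR/J early, late), 0 to 6 and 0 to 6 (C57BL/6J), and 4 to 8 and 5 to 6 (Cav1-null). Between strains it gave 0 to 7, 5 to 8 and 0 to 4 (AKR/J against C57BL/6J on d12, d15, d17), 0 to 2, 7 to 8 and 0 to 4 (Cav1-null against C57BL/6J), and 2 to 8, 3 to 5 and 2 to 2 (AKR/J against Cav1-null). The interactions gave 0 to 2 in both phases for AKR/J with C57BL/6J, 0 to 0 and 0 to 6 for Cav1-null with C57BL/6J, and 2 to 7 and 0 to 2 for AKR/J with Cav1-null. Shares gave 4 to 6 early, 5 to 7 late, 4 to 6 in AKR/J and 5 to 8 in Cav1-null. The planned test of alternative junctions was not possible: of 12 groups of junctions that share a site, 3 had 10 reads in every library and 0 of these were free of removed junctions, likewise 0 at 5 or 20 reads.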
